A study of Mus musculus with 6 samples.

Results

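The E2 ubiquitin-conjugating enzymes were examined in ribosome-associated RNA of mPFC D2 neurons. They were taken as every transcript whose gene name starts with Ube2 followed by a letter, leaving out names with -ps, which mark pseudogenes. This gave 194 of the 115220 listed transcripts, and they belong to 40 of 47729 genes. Expression was measured by RNAseq as FPKM, a fragment number corrected for transcript length and for how many fragments a library had mapped, and a gene total is the sum of FPKM over the transcripts of a gene. All mice were adult males of 2.5 to 3 months on the C57BL/6 background, and all carried the D2Cre, LSL-Flag-Cas9 and RiboTag alleles. D2Cre is a bacterial artificial chromosome transgene in which Drd2 regulatory sequence drives Cre, so Cas9 and the tagged ribosomal protein Rpl22 were made in cells that express or have expressed it. The mPFC of the Ctrl group received AAV GFP, which carries no guide RNA, and that of the Gsk3sKO group received AAV Gsk3sgRNA/GFP, which adds a guide RNA against Gsk3b. Tissue was taken 3 weeks after injection, ribosomes were pulled down through their hemagglutinin tag, and 3 libraries were made per group. The labels do not say whether libraries came from single mice or pools, so the p-values cover only how far the libraries of a group scatter, part of which may be technical.

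Ubiquitin reaches its target proteins in a relay. An E1 enzyme activates it, an E2 enzyme carries it as a thioester on a cysteine, and an E3 ligase brings the loaded E2 to the substrate. The E2 often sets the kind of chain that is built, with lysine-48 and lysine-11 chains marking proteins for the proteasome and lysine-63 chains serving in signalling, trafficking and DNA repair. Related E2 enzymes carry NEDD8 or ISG15 in place of ubiquitin. In neurons the ubiquitin system turns over synaptic receptors and scaffold proteins.

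Most E2 enzymes share a short stretch before the catalytic cysteine. It is shown here for the members that have it at a fixed distance, and for where 1 transcript described below stops. The coding sequences were read from the GENCODE M21 transcripts of GRCm38. Each line gives coding bases 5′ to 3′, with capitals for the codons of histidine, the next residue and asparagine, and for the codon of the cysteine that lies 8 codons after the asparagine.
Ube2b: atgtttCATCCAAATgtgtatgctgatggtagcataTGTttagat
Ube2n: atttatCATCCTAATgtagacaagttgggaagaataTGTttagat
Ube2g2: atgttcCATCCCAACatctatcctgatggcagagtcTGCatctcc
Ube2s: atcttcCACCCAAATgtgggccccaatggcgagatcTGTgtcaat
Ube2f: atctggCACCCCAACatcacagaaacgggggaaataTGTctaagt
Ube2e2: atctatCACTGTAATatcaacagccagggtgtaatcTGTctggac

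The codons for histidine (CAC or CAT), proline (CCN) and asparagine (AAC or AAT) were searched in frame on the coding strand. They stood together in 23 of the 37 members with a full coding transcript, against 3.87% of all 21469 genes with a coding sequence. A cysteine codon (TGC or TGT) at the same distance followed in 20 of the 37 members, against 0.326% of all genes. Ube2h, Ube2k and Ube2u had the histidine, proline and asparagine codons without a cysteine codon at that distance, and no other distance was searched. Ube2e2 and its relatives Ube2e1 and Ube2e3 had a cysteine codon in place of the proline, and with them 23 members had the spaced cysteine. Ube2v1 and Ube2v2, partners of Ube2n that are known to have no catalytic cysteine, had no such stretch. The large or divergent Ube2o, Ube2q1, Ube2q2, Ube2ql1, Ube2j1, Ube2j2, Ube2w and Ube2z lacked these letters too. These matches describe the sequence and do not show activity.

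The targeted gene was checked first. The main Gsk3b transcript ENSMUST00000023507 was at 33.5, 34.7 and 36.2 FPKM in Ctrl, compared with 24.8, 21.6 and 21.2 FPKM in Gsk3sKO, so the groups did not overlap (exact permutation p = 0.1, the smallest that 3 against 3 libraries allow). The Gsk3b gene total differed by -0.40 ± 0.19 (SE) on the log2(FPKM + 1) scale, with overlapping groups (limma, adjusted p = 0.773). The files give no read counts, and the spacing of low values put the depth at about 23.5 to 45.1 M reads per library. Of 46 tested marker genes of 5 cell types, 5 were lower in Gsk3sKO in limma at an unadjusted p under 0.05 (10.9%, against 5.2% of all tested genes) and 0 were higher (against 1.36%). These were 3 of 9 oligodendrocyte genes (Cnp, Mag and Mog) and 2 of 8 microglial genes (C1qa and C1qb). The microglial markers summed to 42.8 to 54.1 FPKM in Ctrl and 32.0 to 41.8 FPKM in Gsk3sKO, whereas the oligodendrocyte sums overlapped at 129 to 197 and 134 to 173 FPKM. The neuronal markers summed to 2608 to 2840 and 2742 to 2879 FPKM, and Drd2 was at 1.58, 6.02 and 14.1 FPKM in Ctrl and 8.32, 5.96 and 7.28 FPKM in Gsk3sKO. The astrocyte markers summed to 184 to 229 FPKM in Ctrl and 190 to 240 FPKM in Gsk3sKO. Those of endothelial cells summed to 200 to 229 and 208 to 276 FPKM. None of the listed markers was at 0 in all libraries. The part of these markers in the differences below was not tested. In such pulled-down RNA, fewer cells of a type, less RNA per cell and less carry-over from cells without the tag cannot be told apart.

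Most E2 genes were detected in the pulled-down RNA, and how much of it came from D2 neurons was not tested. Of the 40 members, 30 had a mean gene total of at least 1 FPKM and were tested. Another 6 were listed at 0 in all libraries, namely Ube2c, a mitotic E2, the Ube2d copies Ube2d2b, Ube2d4, Ube2dnl1 and Ube2dnl2, and the antisense RNA Ube2uos. The remaining 4, Ube2cbp, Ube2nl, Ube2t and Ube2u, lay below a mean of 1 FPKM. The name rule also takes in entries that are not E2 enzymes, since Ube2cbp is known as a binding partner of Ube2c and Ube2d4 and Ube2nl are processed pseudogenes in this annotation. Of the 194 transcripts, 169 were above 0 in at least 1 library and 70 were tested.

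The highest gene total was that of Ube2b, the E2 of histone H2B ubiquitination and post-replication repair, at 66.4 ± 3.69 FPKM in Ctrl (SD, n = 3) and 60.9 ± 5.74 FPKM in Gsk3sKO. It stood above 92.2% of all tested genes. Ube2ql1, a divergent E2 of the Ube2q type, was close to it at 66.3 ± 5.12 and 59.7 ± 9.18 FPKM, and the order of the pair did not exceed their spread. Ube2n, which builds lysine-63 chains, followed at 49.6 ± 4.55 and 51.3 ± 1.32 FPKM. Ube2e3, a broad ubiquitin E2, was at 38.8 ± 2.02 and 36.1 ± 3.89 FPKM. For these members the log2 difference in limma was -0.12 ± 0.13 (SE) for Ube2b (unadjusted p = 0.372, adjusted p = 0.896), -0.16 ± 0.15 for Ube2ql1 (unadjusted p = 0.327, adjusted p = 0.876), 0.05 ± 0.13 for Ube2n (unadjusted p = 0.703, adjusted p = 0.955) and -0.11 ± 0.14 for Ube2e3 (unadjusted p = 0.462, adjusted p = 0.914). Ube2e3, Ube2e2 and Ube2o could not be ordered within that spread. The lowest tested members were Ube2l6, the E2 of ISG15, at 7.56 ± 2.52 and 5.27 ± 2.88 FPKM, and Ube2f, an E2 of NEDD8, at 11.1 ± 4.34 and 4.51 ± 1.67 FPKM.

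**Figure D1:**
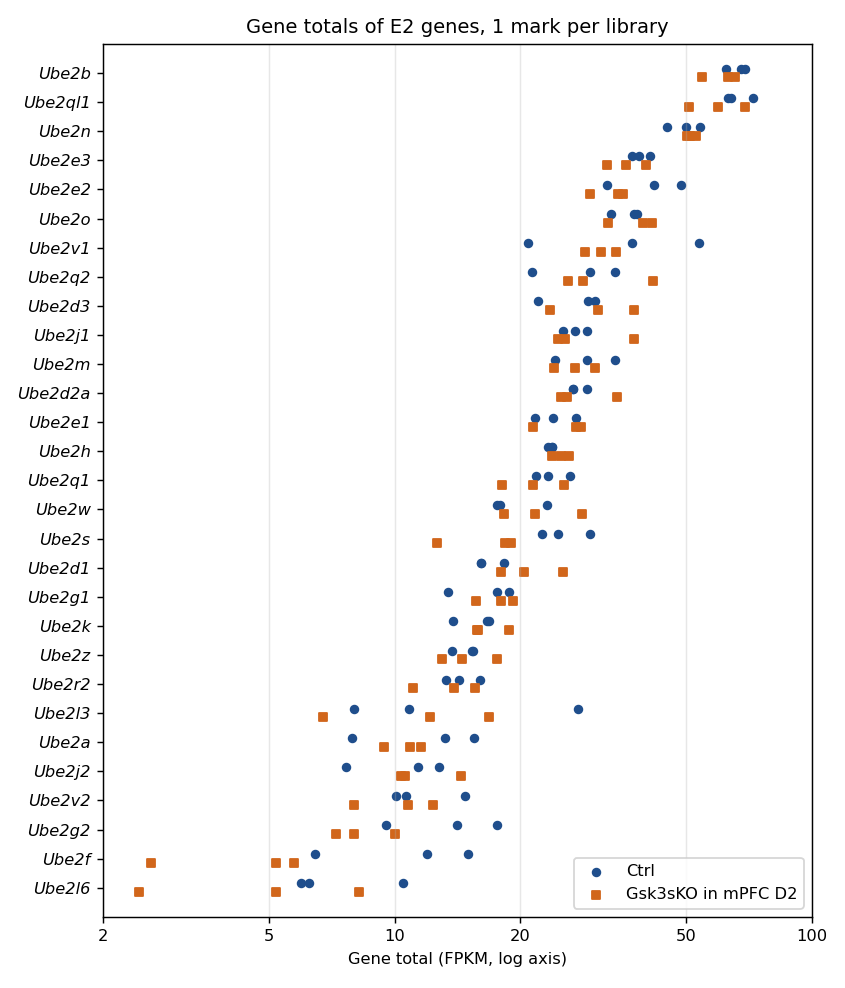
Gene totals of 29 tested E2 genes in FPKM (log axis), with 1 mark per library, circles for Ctrl and squares for Gsk3sKO in mPFC D2, ordered by mean. Ube2b and Ube2ql1 lie at the top and Ube2f and Ube2l6 at the bottom, and the marks of the groups are separate for Ube2f and Ube2s.

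By role, the broad ubiquitin E2s (Ube2d, Ube2e, Ube2l3 and Ube2w) carried 26.5% of the summed E2 expression in Ctrl, at 210 ± 18.4 FPKM in Ctrl and 209 ± 12.9 FPKM in Gsk3sKO. All 40 members together summed to 852, 768 and 760 FPKM in Ctrl and to 758, 754 and 754 FPKM in Gsk3sKO. Ctrl replicate 1 stood above the other libraries in this sum, and the others lay close together.

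For most E2 gene totals the estimated difference between Gsk3sKO and Ctrl was small. Of the 30 tested genes, 3 were lower in Gsk3sKO in limma at an unadjusted p under 0.05 and 0 were higher. That is 10% of the members, against 6.56% of all 12874 tested genes. Over all genes 5.2% were lower and 1.36% higher, so 79.3% of the calls pointed down, and 62.1% did so after median-ratio scaling. No member passed an adjusted p of 0.05, and the lowest adjusted value in limma was 0.671. An ordinary linear model without variance moderation called 1 member, Ube2s. The median log2 difference was -0.08 over the members and -0.06 over all tested genes. The groups did not overlap for 2 members (6.67%), against 12% of all tested genes. In size, 26 of the 30 members differed by less than 1.3-fold, with a median standard error of 0.18 on the log2 scale. With totals formed in fragments in place of FPKM, an alternative chosen after seeing the data, 2 members passed (Ube2g2 and Ube2l6), against 5.97% of all tested genes. The sign turned for 4 members on that scale (Ube2a, Ube2g1, Ube2o and Ube2v2) and for 0 after median-ratio scaling.

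**Figure D2:**
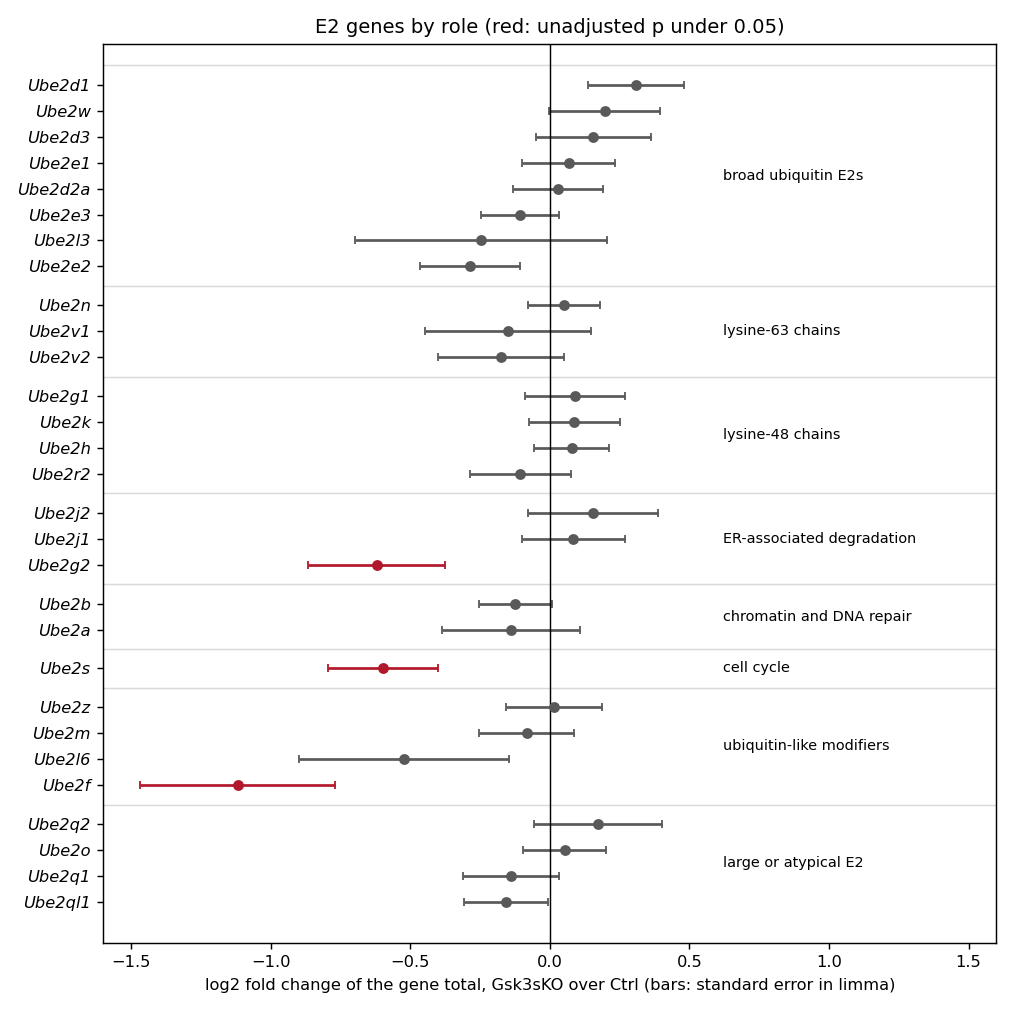
Log2 fold change of 29 tested E2 gene totals, Gsk3sKO over Ctrl, on the log2(FPKM + 1) scale, grouped by role (bars are standard errors from limma). Ube2f, Ube2s and Ube2g2, in red, had an unadjusted p under 0.05, and the largest positive value, of Ube2d1, was 0.31.

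Ube2f, which passes NEDD8 to cullin 5 complexes, had the largest difference. Its gene total (chr1:91250304-91290337, plus strand) was 11.95, 6.44 and 15.01 FPKM in Ctrl and 5.18, 5.74 and 2.61 FPKM in Gsk3sKO. The highest Gsk3sKO library was still under the lowest Ctrl library, though Ctrl replicate 2 was near the Gsk3sKO range. The log2 difference was -1.12 ± 0.35 (SE) in limma (unadjusted p = 0.0121, adjusted p = 0.671), and the exact permutation p was 0.1.

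The Ube2f difference lay in its short transcripts. The long transcript ENSMUST00000171165, of 5654 bases, was at 2.38, 3.09 and 2.04 FPKM in Ctrl and 2.31, 5.12 and 2.44 FPKM in Gsk3sKO. ENSMUST00000178627, of 1363 bases, was at 7.34, 1.82 and 0.648 FPKM in Ctrl and 2.82, 0 and 0 FPKM in Gsk3sKO. ENSMUST00000191368, of 1110 bases, was at 12.1 FPKM in Ctrl replicate 3, at 0.353 FPKM in Ctrl replicate 2 and listed at 0 in the other 4 libraries. These transcripts hold the same coding sequence of 558 bases, as do 5 Ube2f transcripts in all. FPKM weights a fragment of a short transcript more than one of a long transcript, so the gene total was also formed in fragments, as FPKM times length in kilobases. On that scale Ube2f was at 25.4, 21.5 and 26.0 FPKM times kilobases in Ctrl and 17.0, 29.3 and 13.9 in Gsk3sKO. The groups then overlapped and the difference was -0.33 on the log2 scale (limma, unadjusted p = 0.290). Without Ctrl replicate 3 the FPKM difference was -0.88 (limma, unadjusted p = 0.0516).

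**Figure D3:**
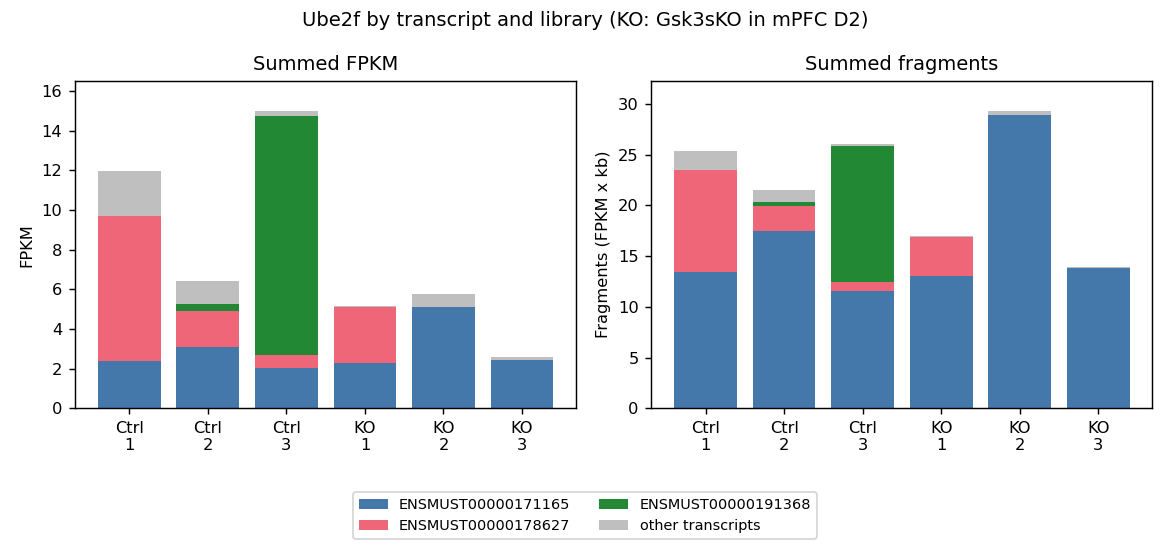
Ube2f by library, as summed FPKM (left) and as summed fragments, FPKM times kilobases (right), with each bar divided by transcript. The blue long transcript carries most fragments in 5 libraries, and the red and green short transcripts add most of the FPKM in Ctrl 1, Ctrl 3 and Gsk3sKO 1.

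Ube2s, which extends lysine-11 chains with the anaphase-promoting complex, was the other member without overlap. Its gene total (chr7:4794546-4812590, minus strand) was 29.4, 22.5 and 24.7 FPKM in Ctrl and 19.0, 18.4 and 12.6 FPKM in Gsk3sKO. The log2 difference was -0.60 ± 0.20 (SE) in limma (unadjusted p = 0.0156, adjusted p = 0.688), and the exact permutation p was 0.1. In fragments the value was -0.48 (limma, unadjusted p = 0.0722), and without Ctrl replicate 1 it was -0.50 (unadjusted p = 0.0535). Its main transcript ENSMUST00000079496, with 87.2% of the gene total, was at 23.4, 21.4 and 18.3 FPKM in Ctrl and 17.98, 17.9 and 11.5 FPKM in Gsk3sKO. The lowest Ctrl and the highest Gsk3sKO value of that transcript nearly touched. Its log2 difference was -0.41 ± 0.23 (SE) and did not pass the test (limma, unadjusted p = 0.121). The other tested Ube2s transcript, ENSMUST00000206669, was at 5.37, 0.430 and 5.24 FPKM in Ctrl and 0.999, 0.263 and 0.804 FPKM in Gsk3sKO.

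Ube2g2, an E2 of endoplasmic reticulum associated degradation, was the remaining member with a call. Its gene total (chr10:77622275-77645993, plus strand) was 17.5, 9.52 and 14.1 FPKM in Ctrl and 7.22, 10.03 and 7.96 FPKM in Gsk3sKO. Ctrl replicate 2 lay inside the Gsk3sKO range, and the exact permutation p was 0.2. The log2 difference was -0.62 ± 0.25 (SE) in limma (unadjusted p = 0.0345, adjusted p = 0.741). Median-ratio scaling gave -0.56 (limma, unadjusted p = 0.0645), and leaving out Ctrl replicate 1 gave -0.43. The call was also lost without Ctrl replicate 3, Gsk3sKO replicate 1 or Gsk3sKO replicate 3. Nearly all of the gene total, 99.5%, came from ENSMUST00000174510. In the transcript fit it had a log2 difference of -0.63 ± 0.27 (SE) and did not pass (limma, unadjusted p = 0.0588). In fragments the difference of the gene total was -0.66 (limma, unadjusted p = 0.0402).

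The other E2s of endoplasmic reticulum associated degradation did not pass the test. Ube2j1, a membrane-anchored E2, was at 27.1 ± 1.80 FPKM in Ctrl and 29.2 ± 7.15 FPKM in Gsk3sKO (SD, n = 3). Ube2j2, its relative, was at 10.6 ± 2.65 and 11.8 ± 2.30 FPKM. Their log2 differences were 0.08 ± 0.19 and 0.16 ± 0.23 (SE).

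None of the 8 tested broad ubiquitin E2s passed the test. These work with many E3 ligases, and Ube2l3 serves HECT and RING-between-RING ligases. Ube2d1 had the largest positive difference among the members, at 16.8 ± 1.26 FPKM in Ctrl and 21.2 ± 3.78 FPKM in Gsk3sKO (log2 difference 0.31 ± 0.17, SE). Ube2d3 was at 27.1 ± 4.44 and 30.6 ± 6.93 FPKM and Ube2d2a at 27.5 ± 1.25 and 28.3 ± 5.02 FPKM. The coding sequences of Ube2d2a and Ube2d3 are 86.3% identical, with a longest shared run of 42 bases. Ube2l3 was the least even member of this role, at 10.8, 27.4 and 8.0 FPKM in Ctrl and 6.74, 12.1 and 16.8 FPKM in Gsk3sKO. Ube2w, which ubiquitinates the N terminus of proteins, was at 19.5 ± 3.20 and 22.7 ± 4.99 FPKM.

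Among the 4 tested members listed for lysine-48 chains, none passed the test and the log2 differences lay between -0.11 and 0.09 in FPKM. In fragments the Ube2k groups did not overlap, at 39.8, 38.8 and 45.1 in Ctrl and 53.3, 46.0 and 65.2 in Gsk3sKO, with a log2 difference of 0.39 ± 0.17 (limma, unadjusted p = 0.0520), and Ube2g1 turned from 0.09 to -0.06. Ube2h was the most even member of all, at 23.8, 23.3 and 23.8 FPKM in Ctrl and 23.8, 25.03 and 26.2 FPKM in Gsk3sKO, so the highest library was 1.12 times the lowest. Ube2k was at 15.8 ± 1.70 and 16.8 ± 1.74 FPKM, Ube2g1 at 16.6 ± 2.81 and 17.6 ± 1.79 FPKM, and Ube2r2, a relative of Cdc34, at 14.5 ± 1.40 and 13.5 ± 2.28 FPKM. Of the Ube2g1 total, 74.1% came from ENSMUST00000126046, a retained intron transcript without a coding sequence. The chromatin E2s Ube2a and Ube2b had log2 differences of -0.14 ± 0.25 and -0.12 ± 0.13 (SE), and that of Ube2a turned to 0.22 ± 0.34 in fragments.

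Of the E2s for ubiquitin-like modifiers, Ube2m, the other NEDD8 E2, was at 28.9 ± 4.73 FPKM in Ctrl and 27.1 ± 3.07 FPKM in Gsk3sKO. Ube2m had a log2 difference of -0.08 ± 0.17 (SE), and the difference between Ube2f and Ube2m was not tested. Ube2z, which carries ubiquitin and FAT10, had 0.01 ± 0.17. Ube2l6 was at 10.5, 5.97 and 6.24 FPKM in Ctrl and 5.19, 2.43 and 8.19 FPKM in Gsk3sKO, with overlapping groups and a log2 difference of -0.52 ± 0.38. In fragments the Ube2l6 groups did not overlap and the difference was -0.91 (limma, unadjusted p = 0.0326). The 4 tested large or divergent E2s ranged from -0.16 for Ube2ql1 to 0.17 for Ube2q2 on the log2 scale.

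The lysine-63 E2 Ube2n was at 53.9, 44.8 and 50.05 FPKM in Ctrl and 52.8, 50.2 and 50.9 FPKM in Gsk3sKO, with a log2 difference of 0.05 ± 0.13 (SE). This level is uncertain because Ube2n-ps1, a pseudogene outside the name rule that was chosen after its values were seen, matches the whole Ube2n coding sequence at 459 of 459 bases. Reads from these bases could have been placed at either copy. The FPKM of Ube2n-ps1 was 26.0, 25.04 and 25.8 in Ctrl and 23.1, 32.8 and 20.4 in Gsk3sKO. The pair summed to 75.2 ± 5.06 FPKM in Ctrl and 76.7 ± 5.86 FPKM in Gsk3sKO, so the groups overlapped with or without it. The pseudogene Ube2nl differs from Ube2n at 14 of 456 compared bases and stayed between 0.0248 and 0.264 FPKM. Coding bases 34 to 123 are shown for the 3 copies, with capitals at the 5 positions where Ube2nl differs.
Ube2n: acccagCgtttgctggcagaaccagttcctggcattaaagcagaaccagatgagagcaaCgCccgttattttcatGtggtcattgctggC
Ube2n-ps1: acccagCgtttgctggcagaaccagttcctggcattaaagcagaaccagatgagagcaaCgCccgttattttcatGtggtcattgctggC
Ube2nl: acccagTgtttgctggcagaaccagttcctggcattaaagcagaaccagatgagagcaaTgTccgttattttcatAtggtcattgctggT

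The inactive partners of Ube2n were less even. Ube2v1 was at 53.6, 37.1 and 20.9 FPKM in Ctrl, a span that held all Gsk3sKO libraries at 34.0, 31.1 and 28.5 FPKM. Ube2v2 was at 11.8 ± 2.57 FPKM in Ctrl and 10.3 ± 2.19 FPKM in Gsk3sKO, and its log2 difference turned from -0.18 to 0.03 in fragments.

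At the level of single transcripts, 3 of the 70 tested E2 transcripts were lower in Gsk3sKO in limma at an unadjusted p under 0.05 and 0 were higher. That is 4.29% of the members, against 5.56% of all 21584 tested transcripts, of which 3.75% were lower and 1.81% higher. No E2 transcript passed an adjusted p of 0.05, and the lowest adjusted value in limma was 0.159. An ordinary linear model without variance moderation called 1 of these 3, in Ube2e2, and the Ube2d3 transcript ENSMUST00000197859, which was higher. That transcript, chosen after its values were seen, was at 12.3, 10.3 and 12.2 FPKM in Ctrl and 17.8, 13.8 and 15.5 FPKM in Gsk3sKO, without overlap. Its log2 difference was 0.40 ± 0.19 (SE), with an unadjusted p of 0.0722 in limma and of 0.0461 after median-ratio scaling. The groups did not overlap for 10 of the 70 transcripts (14.3%), against 11.2% of all tested transcripts. The transcripts of a gene share most of their sequence, and the division of reads among them is an estimate, so they are not independent measurements.

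The lowest adjusted value was that of a Ube2e2 transcript. Ube2e2 is a broad ubiquitin E2 on the minus strand of chromosome 14. Its transcript ENSMUST00000176931, of 772 bases and annotated as a retained intron RNA without a coding sequence, was at 20.2, 8.41 and 10.9 FPKM in Ctrl. In Gsk3sKO it was at 0.0921, 0.812 and 0 FPKM. The groups were far apart, with a log2 difference of -3.41 ± 0.44 (SE) in limma (adjusted p = 0.159) and an exact permutation p of 0.1. All 12 alternative fits kept an unadjusted p under 0.05. It made up 41.5%, 20.05% and 33.7% of the Ube2e2 gene total in Ctrl and 0.261%, 2.76% and 0% in Gsk3sKO.

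The main coding transcript of Ube2e2, ENSMUST00000150727, was at 21.4, 21.7 and 15.8 FPKM in Ctrl and 31.5, 21.2 and 28.6 FPKM in Gsk3sKO. It was higher in 2 of 3 Gsk3sKO libraries than in any Ctrl library, with a log2 difference of 0.44 ± 0.22 (SE) that did not pass the test (limma, unadjusted p = 0.0882). Its share of the gene total was 44.1%, 51.7% and 49.1% in Ctrl and 89.3%, 72.2% and 83.1% in Gsk3sKO. Another Ube2e2 transcript, ENSMUST00000151926, lay between 2.29 and 8.86 FPKM in Ctrl and between 0.195 and 1.77 FPKM in Gsk3sKO. The gene total was 48.6, 41.9 and 32.2 FPKM in Ctrl and 35.3, 29.4 and 34.4 FPKM in Gsk3sKO, with overlapping groups and a log2 difference of -0.29 ± 0.18. In fragments the Ube2e2 total was 45.2 ± 7.63 in Ctrl and 44.5 ± 6.99 in Gsk3sKO (SD), a log2 difference of -0.02 (limma, unadjusted p = 0.919).

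The Ube2e2 transcripts part after a shared exon (chr14:18630299-18630431). ENSMUST00000176931 goes on into an end exon of 270 bases (chr14:18597134-18597403), which overlaps an exon of 1 other Ube2e2 transcript. ENSMUST00000150727 goes on into the exon at chr14:18586851-18586998, which holds the codon of the catalytic cysteine shown above (codon 139, chr14:18586942-18586944). The lines give the last 30 bases of the shared exon in lower case and the first 60 bases of the following exon in capitals, 5′ to 3′ in the sense of the gene.
ENSMUST00000150727: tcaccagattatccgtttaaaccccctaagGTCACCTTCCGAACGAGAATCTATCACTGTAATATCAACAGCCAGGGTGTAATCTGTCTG
ENSMUST00000176931: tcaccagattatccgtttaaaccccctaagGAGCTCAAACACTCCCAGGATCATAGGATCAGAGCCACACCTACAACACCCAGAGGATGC
The histidine and cysteine codons stand in the first line, and ENSMUST00000176931 ends without reaching that exon.

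**Figure D4:**
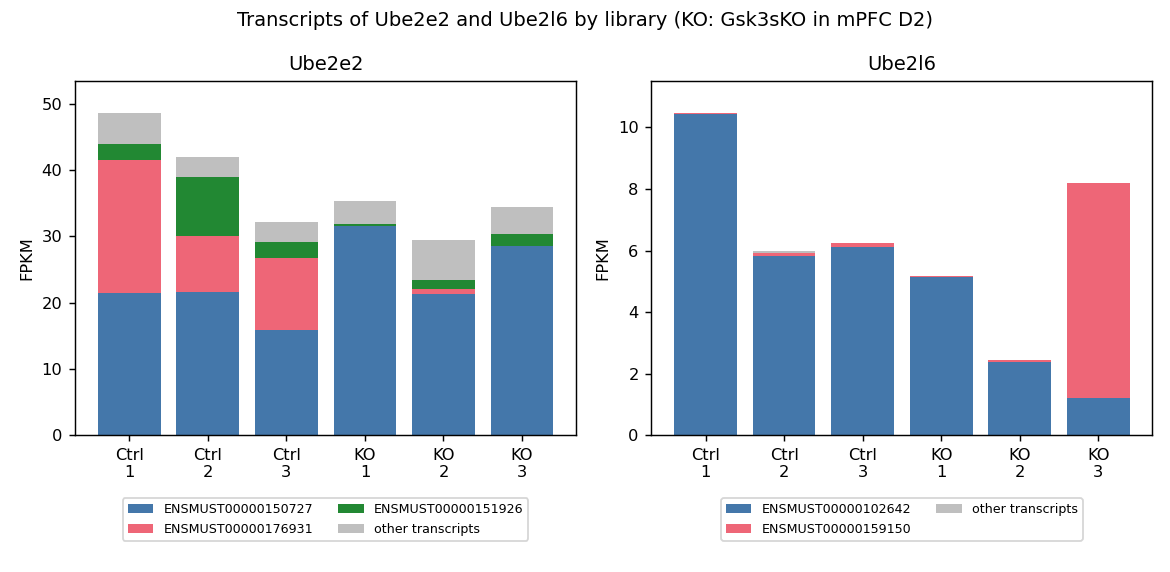
FPKM of Ube2e2 (left) and Ube2l6 (right) in each library, with bars divided by transcript. In Ube2e2 the red ENSMUST00000176931 is present in the Ctrl libraries and nearly absent from the Gsk3sKO libraries, and in Ube2l6 the red ENSMUST00000159150 is at 6.98 FPKM in Gsk3sKO 3 and a thin band or less in the other libraries.

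Another called transcript was ENSMUST00000102642 of Ube2l6, which was at 10.4, 5.81 and 6.13 FPKM in Ctrl and 5.14, 2.36 and 1.20 FPKM in Gsk3sKO. The groups did not overlap, and the log2 difference was -1.20 ± 0.46 (SE) in limma (unadjusted p = 0.0371, adjusted p = 0.842). Leaving out any library other than Gsk3sKO replicate 1 took its unadjusted p above 0.05. In Gsk3sKO replicate 3 the short retained intron transcript ENSMUST00000159150 was at 6.98 FPKM, against at most 0.115 FPKM in each of the other 5 libraries, so the gene totals overlapped although ENSMUST00000102642 did not.

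Large differences that did not pass the test included 2 transcripts that were high in 2 of the 3 Ctrl libraries. ENSMUST00000122441 of Ube2q2 was at 9.80, 0.0219 and 15.1 FPKM in Ctrl and 0.0270, 0 and 0.102 FPKM in Gsk3sKO, with a log2 difference of -2.43 ± 1.05 (limma, unadjusted p = 0.0571). Ctrl replicate 2 lay with the Gsk3sKO libraries. ENSMUST00000202991 of Ube2a was at 2.76, 0 and 12.5 FPKM in Ctrl and listed at 0 in all Gsk3sKO libraries, with a log2 difference of -1.89 ± 0.94 (limma, unadjusted p = 0.0897).

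Differences in how a gene was divided were tested with the transcript balance, the log2 ratio of a transcript to the other transcripts of its gene with 1 FPKM added to each. Of 60 tested transcripts in 20 E2 genes, 4 passed an unadjusted p of 0.05 in limma (6.67%), against 4.95% of 13933 transcripts over all genes, and 0 passed an adjusted p of 0.05. Without variance moderation 2 passed. The Ube2e2 transcripts had balances of -3.65 for ENSMUST00000176931 (unadjusted p = 0.00134, adjusted p = 0.508) and 2.15 for ENSMUST00000150727 (unadjusted p = 0.0203), both in limma, and as parts of 1 gene they are not separate results. The others were ENSMUST00000122441 of Ube2q2 at -3.10 (limma, unadjusted p = 0.0289) and ENSMUST00000171165 of Ube2f at 2.39 (limma, unadjusted p = 0.0368). The call of ENSMUST00000150727 was lost without Gsk3sKO replicate 1, that of ENSMUST00000122441 without any library other than Ctrl replicate 2, and that of ENSMUST00000171165 without Ctrl replicate 1 or 3 or Gsk3sKO replicate 2 or 3.

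How firmly reads were divided varied among the E2 genes. In 10 of the 30 tested genes 1 transcript made up more than 90% of the gene total. Ube2n, Ube2z and Ube2ql1 had 1 listed transcript, and in Ube2g2, Ube2q1, Ube2d1, Ube2e1, Ube2r2, Ube2o and Ube2w the leading transcript had 93.9% to 99.5%. In 8 genes the leading transcript was not the same in all libraries. Ube2j2 had 4 different leading transcripts among the 6 libraries, and Ube2f, Ube2k, Ube2a and Ube2q2 had 3 each. Transcripts of the protein-coding type made up 92.5% to 96.6% of the E2 sum in each library, and retained intron types 2.82% to 5.61%.

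Other genes of the ubiquitin pathway were described with the same fit. Of 253 tested genes on the lists, 5 were higher and 9 lower in limma at an unadjusted p under 0.05 (5.53%, against 6.56% of all genes), and their median log2 difference was -0.01. None of 9 tested E1 genes, none of 7 E2 genes named otherwise and none of 16 SUMO ligases and proteases passed that threshold. Among 16 genes of ubiquitin and its relatives, 2 were lower (12.5%, against 5.2% of all tested genes) and 0 higher (against 1.36%). Ubb, a polyubiquitin gene, was at 1162 ± 154 FPKM in Ctrl and 832 ± 106 FPKM in Gsk3sKO (log2 difference -0.48, unadjusted p = 0.0227 in limma, and 0.0565 after median-ratio scaling). Map1lc3a, an autophagy gene of the same fold, had -0.82.

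Among E3 ligases of the HECT type 2 of 25 were higher (8%, against 1.36% of all tested genes) and 0 lower (against 5.2%). These were Trip12 at 0.46 and Herc6 at 0.64 on the log2 scale, and neither passed when totals were formed in fragments. Of 67 RING and RING-between-RING ligases, Rnf11 (0.62) and Rnf20 (0.43) were higher and March5 (-0.38) and Rnf31 (-0.74) lower. That is 2.99% in each direction, against 1.36% higher and 5.2% lower of all tested genes. Rnf31, the catalytic subunit of the linear chain assembly complex, was at 8.35 ± 4.15 FPKM in Ctrl and 4.27 ± 0.349 FPKM in Gsk3sKO. In fragments, Rnf11 alone of these 4 ligases passed. Of 40 subunits of cullin-RING ligases and the anaphase-promoting complex, 1 was higher and 1 lower (2.5% in each direction, against the same shares). Dcun1d1, which promotes neddylation of cullins, had 0.52 (-0.12 in fragments). Anapc11, the RING subunit of the anaphase-promoting complex with which Ube2s works, was at 13.5 ± 2.23 FPKM in Ctrl and 8.81 ± 0.993 FPKM in Gsk3sKO, a log2 difference of -0.56 (limma, adjusted p = 0.688).

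Of 73 deubiquitinases, which remove ubiquitin, 4 were lower (5.48%, against 5.2% of all tested genes) and 0 higher (against 1.36%). Otud4 was at 6.09, 10.6 and 9.04 FPKM in Ctrl and 4.24, 3.69 and 2.86 FPKM in Gsk3sKO, a log2 difference of -1.04 ± 0.26 (limma, adjusted p = 0.502). Usp46, a deubiquitinase of AMPA receptors, was at 24.6, 24.9 and 28.0 FPKM in Ctrl and 12.8, 20.7 and 8.37 FPKM in Gsk3sKO. The groups did not overlap for 7 of the 73 deubiquitinases, among them the 4 called genes, and for 12% of all tested genes. Josd2, a deubiquitinase of the Machado-Joseph type, had -0.71 and Stambpl1 -0.51 on the log2 scale. Stambpl1 did not pass in fragments or after median-ratio scaling (limma, unadjusted p = 0.112 and 0.0764).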

How the data were processed

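Ribosome-associated RNA was sequenced in 3 Ctrl and 3 Gsk3sKO libraries, grouped by the submitters' labels, with 0 per-library columns unused. The authors deposited FPKM per transcript, made with HISAT2 2.1.0, SAMtools 1.9 and StringTie 1.3.4d on GRCm38 as the submitters' processing notes list them. How these tools were set is not given in the sources used here. The authors also deposited a fold, a p-value and a q-value per transcript, and these were not used. The deposited table holds no counts, and the depth, read from steps between low values of transcripts, is approximate, since 14.0% to 22.3% of them lay within 0.01 of a whole read.

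FPKM was summed by gene ID. Transcripts and gene totals with a mean of at least 1 FPKM over the 6 libraries were tested on log2(FPKM + 1) in R 4.3.3 by limma 3.58.1, using lmFit and a trended eBayes and no covariates. Tests were 2-sided, adjusted by the Benjamini-Hochberg method over all tested rows, and calls used an unadjusted p under 0.05. Fold changes on this scale understate those of low genes. The fit was tested on simulated data. Of the 194 E2 transcripts, 190 were found in GENCODE M21, and the other 4 belong to Ube2l3.

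Full statistics were given for E2 totals and transcripts with an unadjusted p under 0.05, the 5 highest totals and the 5 transcripts with the largest difference. Genes outside the family were named if they were on a pathway list and passed that threshold. The values of 1 tested member and its transcripts are not reported here, although counts over the family include them. Other transcripts of the named genes were chosen after their values were seen. The members, lists and tests were chosen with earlier results of these data known. Alternatives were a pseudocount of 0.1, no filter, a mean of at least 5 FPKM, median-ratio scaling, no variance moderation, a replicate block and leaving out each library. Other steps used Python 3.11.15, pandas 2.3.3, scipy 1.17.1 and matplotlib 3.10.9.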

Additional observations from a re-analysis of the deposited data

How the results depend on the processing

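With 3 libraries a group, the median standard error was 0.18 (log2) for E2 gene totals and 0.51 for E2 transcripts, which limits the differences that could be seen. The count of called gene totals was 3, and 1 without variance moderation, with 1 to 3 when a library was left out (1 without Ctrl replicate 1). The members changed too: Ube2e2 (-0.44) and Ube2v1 (-0.50) were called without Ctrl replicate 3, and Ube2l6 (-0.85) without Gsk3sKO replicate 3. Called E2 transcripts numbered 3, with 5 without the filter, 1 at a mean of at least 5 FPKM, and 1 to 6 when a library was left out (1 without Ctrl replicate 1 or 3, 6 without Ctrl replicate 2 or Gsk3sKO replicate 1). Called balances numbered 4, with 8 without the filter, 2 at a mean of at least 5 FPKM, 2 without variance moderation, and 2 to 7 when a library was left out (2 without Ctrl replicate 1 or 3, 7 without Gsk3sKO replicate 1). Over all transcripts the called number was 1200, with 1917 without the filter and 590 at a mean of at least 5 FPKM. The latter 2 settings change the number of features tested. For the others the cause was not tested.

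The Gsk3b gene total differed by -0.40, by -0.57 in fragments (limma, unadjusted p = 0.00119), and by -0.61 to -0.28 when a library was left out, with -0.61 without Ctrl replicate 1. The fragment scale was chosen after seeing the data. The sign turned for Ube2n without Ctrl replicate 2 (-0.018, up to 0.11 without Ctrl replicate 1), which passed the test in no fit. Among the genes and transcripts given with full statistics, 148 comparisons of an alternative with the reported value kept direction and side of the threshold, 32 lost the call, 2 gained it and 1 turned. Features without a call in the main fit could not lose one, so the 148 do not measure how stable the calls were. Of the called totals, Ube2f kept its call in 10 of 13 alternatives, Ube2s in 11 and Ube2g2 in 6. Among called transcripts, ENSMUST00000176931 kept it in all 12 and ENSMUST00000102642 in 5 of 12. Balance calls were kept in 12 and 10 of 12 for Ube2e2, 6 of 11 for Ube2f and 5 of 11 for Ube2q2. Over all tested members, 4 gene totals turned in fragments.

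The replicate numbers gave no sign of pairing, since deviations of same-numbered libraries correlated at -0.03, -0.01 and -0.08 over gene totals. With the replicate number as a block, 2 gene totals (Ube2f and Ube2s), 4 transcripts and 3 balances were called.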
